A study of Mus musculus with 24 samples.

Results

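Lung gene expression was compared between 3 samples of diesel exhaust particles given without the allergen ovalbumin. Diesel exhaust particles are soot with a carbon core that carries organic compounds and metals. The 9 arrays whose titles name CDEP, NDEP or ADEP and no ovalbumin were used, 3 per particle, out of 24 arrays in all. Each array measured the lung of 1 female BALB/C mouse, an inbred strain, aged 8 to 10 weeks. CDEP, NDEP and ADEP mice received 150 ug of that particle and no ovalbumin (OVA), placed in the nose on days 0 and 13, with tissue taken 18 hours after the second dose. Saline mice received saline on the same days and served as the background. In 4 other groups of 3, mice of the same strain, sex and age received 20 ug OVA alone or with 150 ug of CDEP, NDEP or ADEP. The labels mark the 4 groups that received OVA as sensitized and the others, including all mice compared here, as not. The series title calls the diesel samples chemically distinct, and the labels used here give neither their composition nor what the letters C, N and A stand for.

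Soot that reaches the airways is taken up by macrophages, and epithelial cells and macrophages then release acute phase proteins and chemokines that draw in neutrophils. Organic compounds on the soot can bind the aryl hydrocarbon receptor, a transcription factor whose best known target is Cyp1a1, an enzyme that oxidises polycyclic hydrocarbons. Metals and reactive oxygen can turn on antioxidant genes and metallothioneins. The comparison asks whether particles that differ in chemistry left different marks on these programmes.

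Lung markers stood at the top of the arrays. Sftpc, the surfactant protein of alveolar type 2 cells, averaged 13.79 log2 intensity with CDEP, 13.73 with NDEP, 13.64 with ADEP and 13.62 with saline, and Scgb1a1, the secretory protein of club cells, averaged 13.99, 13.93, 14.02 and 14.01 in the same order. Heart muscle RNA was present too, since Myl7, an atrial myosin light chain, averaged 10.33, 10.45, 11.00 and 10.84. Array medians lay between 72.2 and 75.5 intensity units over all 24 arrays. The 3 NDEP arrays averaged 75.1 ± 0.50, CDEP arrays 73.2 ± 0.51 and ADEP arrays 73.6 ± 0.24 (SD, n = 3 each; exact permutation test over 280 divisions, p = 0.0107, the smallest possible being 0.00357). The root mean square difference between arrays was 0.213 log2 as a median over the 27 pairs of different particles, and 0.205 over the 9 pairs of the same particle. NDEP replicate 1 stood farthest from the others, with a median of 0.252, and ADEP replicate 1 came next with 0.243. Levels are log2 intensities throughout, and a log2 difference of 1 is a doubling.

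Few differences between the 3 particles were large enough to pass a test over all genes. Of 12393 genes, 0 passed an adjusted p of 0.05 in the F test of the 3 particle means (limma), a background of 0.00%. At an unadjusted p under 0.05 there were 751 genes, 6.06% of those tested. The pairs CDEP minus NDEP and CDEP minus ADEP each called 0 genes (0.00%), with 734 (5.92%) and 828 (6.68%) at an unadjusted p under 0.05. NDEP minus ADEP called 1 gene, 0.00807% of those tested, with 565 (4.56%) at an unadjusted p under 0.05. As a scale for these counts, the mean of the 3 particles differed from saline at an adjusted p of 0.05 in 794 genes (6.41%), 525 higher (4.24%) and 269 lower (2.17%). That count was 256 without saline replicate 1, 507 without saline replicate 3 and 294 with RNA quality covariates.

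**Figure D1:**
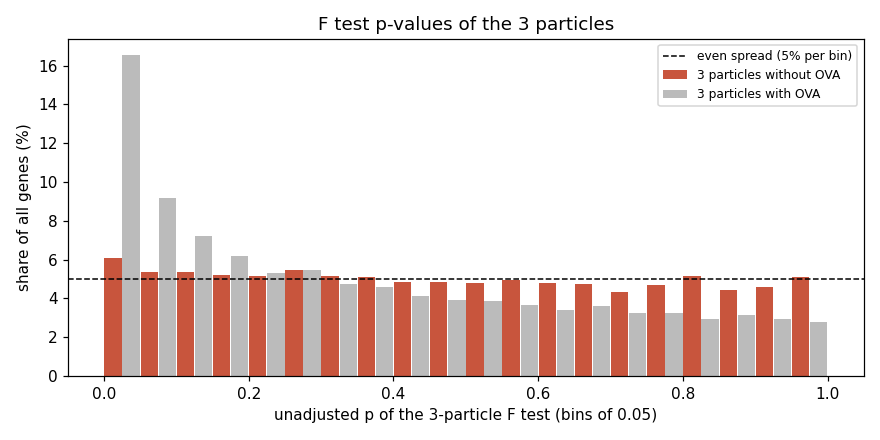
Share of the 12393 genes (vertical axis, %) by unadjusted p of the F test of 3 particles (horizontal axis, bins of 0.05), without OVA in red and with OVA in grey; the dashed line is an even spread. Without OVA the first bin holds 6.06% of genes and the rest lie near the line, while with OVA the first bin holds 16.5%.

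The intervals say how large a difference could have gone unseen. For CDEP minus NDEP, the 95% interval had a median reach of 0.24 log2, or 1.18-fold, to each side of the estimate. It lay wholly within 1.5-fold of no difference for 95.3% of genes and within 2-fold for 99.7%. For CDEP minus ADEP these shares were 93.3% and 99.5%, and for NDEP minus ADEP 94.8% and 99.5%. Intensities of dim probe sets compress, so for dim genes these intervals bound the measured value and not the RNA. Differences of at least 2-fold were measured in 5 genes over the 3 pairs, named here because of their values: Vnn1, Dbp, Igha, Ckmt2 and Clca1. Only Vnn1 passed the test.

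Vnn1 (Entrez gene 22361) encodes vanin 1, a membrane pantetheinase that splits pantetheine into vitamin B5 and cysteamine and is known as a regulator of oxidative stress and inflammation. Its levels were 6.88, 6.82 and 7.03 with CDEP, 7.28, 7.74 and 7.86 with NDEP, 6.21, 6.40 and 6.87 with ADEP, and 5.36, 5.60 and 5.75 with saline. Every NDEP array lay above every CDEP and ADEP array, and all particle arrays lay above all saline arrays. NDEP exceeded ADEP by 1.14 ± 0.18 log2 (SE), which is 2.20-fold with a 95% interval of 1.70 to 2.84 (limma adjusted p = 0.0199). CDEP minus NDEP was -0.72 ± 0.18 (limma adjusted p = 0.575) and CDEP minus ADEP 0.42 ± 0.18 (limma adjusted p = 0.710), so CDEP lay between the other particles. The 3-particle F test gave an adjusted p of 0.0838. The NDEP minus ADEP call was lost without NDEP replicate 2 (adjusted p = 0.283), NDEP replicate 3 (0.297), ADEP replicate 1 (0.453) or ADEP replicate 2 (0.131), with differences of 1.00 to 1.09 log2. It was also lost when only the arrays compared entered the fit (adjusted p = 0.108), with RNA quality covariates (0.0591) and when the 3 pairs were adjusted together (0.0596).

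Vnn1 kept the same order in the mice that also received OVA, which share no array with the comparison above. Levels there were 6.34, 6.68 and 6.18 with CDEP and OVA, 6.73, 6.71 and 6.70 with NDEP and OVA, 6.36, 5.66 and 5.94 with ADEP and OVA, and 5.87, 5.42 and 5.84 with OVA alone. NDEP with OVA exceeded ADEP with OVA by 0.72 ± 0.18 log2 on all arrays (limma unadjusted p = 5.06e-04, adjusted p = 0.179). The order repeated, and this second difference did not pass the threshold over all genes.

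**Figure D2:**
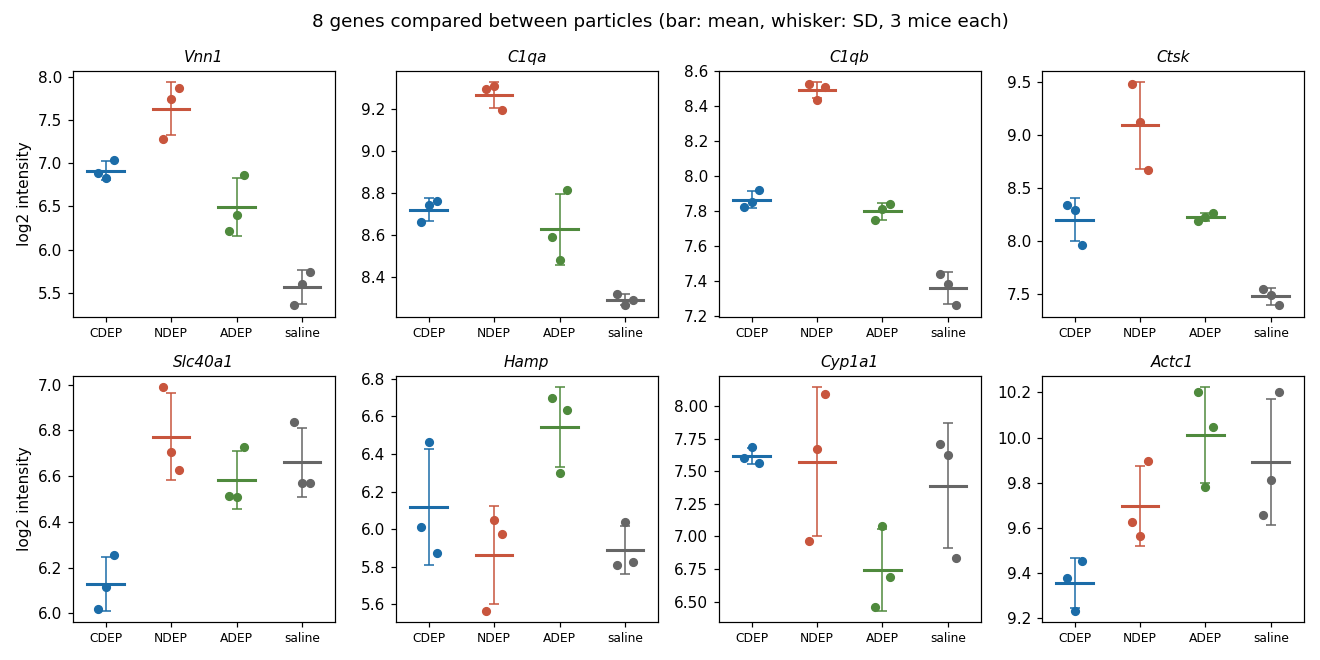
Log2 intensity of 8 genes on each array (points), with group mean (bar) and SD (whisker) for CDEP, NDEP, ADEP and saline, 3 mice each; vertical axes differ between panels and do not start at 0. Vnn1, C1qa, C1qb and Ctsk are highest with NDEP, Slc40a1 is lowest with CDEP, Hamp and Actc1 are highest with ADEP, and Cyp1a1 is lowest with ADEP; Vnn1 was the only one of the 8 called in a pair.

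The genes with the next smallest p in the F test did not pass, so their values are given as a description. They fall by which particle stood apart. C1qa and C1qb (Entrez genes 12259 and 12260) encode chains of C1q, the recognition part of the classical complement pathway, made mainly by macrophages. C1qa levels were 8.66, 8.74 and 8.76 with CDEP, 9.29, 9.31 and 9.20 with NDEP, 8.59, 8.48 and 8.81 with ADEP, and 8.32, 8.27 and 8.29 with saline. C1qb levels were 7.82, 7.85 and 7.92 with CDEP, 8.53, 8.44 and 8.51 with NDEP, 7.74, 7.81 and 7.84 with ADEP, and 7.44, 7.38 and 7.26 with saline. The NDEP arrays lay apart from all others for both genes. C1qb was 1.62-fold as high with NDEP as with ADEP (95% interval 1.29 to 2.03, limma adjusted p = 0.432), and C1qa 1.56-fold (1.27 to 1.91, limma adjusted p = 0.415). C1qc, the gene of the other C1q chain, differed between NDEP and ADEP by 0.55 ± 0.16 log2 (limma adjusted p = 0.874). The other probe sets of C1qb gave NDEP minus ADEP differences of 0.15 and 0.63 log2.

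The genes C1qb, C1qc and C1qa follow each other on mouse chromosome 4. The promoters of C1qb (chr4:136886151-136886450, minus strand) and C1qc (chr4:136892865-136893164, minus strand) are shown because the chains of 1 protein complex were highest with the same particle; the promoters of C1qa and Vnn1 are not shown. They run 5′ to 3′ from 250 bases before the gene start to 50 after it, are from RefSeq on GRCm38.p6, and capitals mark motif matches.
C1qb: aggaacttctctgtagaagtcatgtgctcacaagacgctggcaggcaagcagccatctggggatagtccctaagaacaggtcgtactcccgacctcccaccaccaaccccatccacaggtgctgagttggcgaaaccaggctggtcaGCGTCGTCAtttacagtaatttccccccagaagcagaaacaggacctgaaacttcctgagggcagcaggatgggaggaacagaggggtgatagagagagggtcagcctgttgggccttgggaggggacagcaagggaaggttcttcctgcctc
C1qc: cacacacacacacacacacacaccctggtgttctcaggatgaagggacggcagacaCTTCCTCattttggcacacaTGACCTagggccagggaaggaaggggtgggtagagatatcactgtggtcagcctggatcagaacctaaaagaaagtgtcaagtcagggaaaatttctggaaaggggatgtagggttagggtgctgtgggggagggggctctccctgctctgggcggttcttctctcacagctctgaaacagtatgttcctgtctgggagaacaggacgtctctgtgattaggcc
5 motifs were searched on both strands. The C1qb window held 1 match to the antioxidant response core TGACNNNGC, on the reverse strand, which 12.4% of 32851 RefSeq mouse promoters of this length hold. The C1qc window held 1 reverse match to GAGGAAG, a PU.1 site (13.6% of promoters), and 1 to the nuclear receptor motif AGGTCA (16.3%). The letters of the aryl hydrocarbon receptor core GCGTG (32.4% of promoters) and of the AP-1 site TGANTCA (7.81%) were in neither window, and no printed matches overlap. These matches are descriptions of the letters and were not tested as binding sites.

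Among the particles, NDEP also had the highest levels of Ctsk, Ccl20, Sla and Ikbip on the probe set that stood for each gene. Ctsk, the collagen-degrading cathepsin K, had 8.35, 8.30 and 7.97 with CDEP, 9.49, 9.12 and 8.67 with NDEP, 8.19, 8.23 and 8.27 with ADEP, and 7.56, 7.50 and 7.40 with saline. CDEP minus NDEP was -0.89 ± 0.22 log2 (limma adjusted p = 0.575) and NDEP minus ADEP 0.86 ± 0.22 (0.782). Ccl20, a chemokine for CCR6-bearing lymphocytes and dendritic cells, had 6.25, 6.13 and 6.26 with CDEP, 6.77, 6.36 and 6.63 with NDEP, 6.08, 6.01 and 5.86 with ADEP, and 5.53, 5.87 and 6.01 with saline. In both genes every NDEP array lay above those of the other particles, as in 2.28% of all genes. Sla, an adaptor that dampens antigen receptor signalling, differed between NDEP and ADEP by 0.68 ± 0.15 log2, and by 0.50 log2 with its second probe set. CDEP was highest on that second probe set, at 6.02 against 5.97 with NDEP. CDEP minus NDEP was -0.37 on the first and 0.05 on the second, so the probe sets disagree on which particle was highest. Ikbip, named for its binding to an NF-kB kinase, had levels of 6.31, 6.22 and 6.21 with CDEP, 6.74, 6.70 and 6.70 with NDEP, and 6.61, 6.50 and 6.24 with ADEP. Its CDEP and ADEP arrays overlapped, and CDEP minus NDEP was -0.47 ± 0.11. Csf2, the cytokine GM-CSF, stood at 6.51, 6.46 and 6.65 with CDEP, 6.75, 6.66 and 6.98 with NDEP and 6.08, 6.35 and 6.31 with ADEP, all above the saline arrays at 5.18, 5.71 and 5.67.

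CDEP arrays lay below all arrays of both other particles in Slc40a1, 2410004B18Rik, B3gnt5, Adcy7 and Rpap2. Slc40a1, the iron exporter ferroportin (Entrez gene 53945), had 6.02, 6.11 and 6.25 with CDEP, 6.99, 6.71 and 6.62 with NDEP, 6.51, 6.51 and 6.73 with ADEP, and 6.84, 6.57 and 6.57 with saline. The CDEP arrays lay below all others, and 2.80% of all genes had CDEP arrays below those of both other particles. CDEP minus NDEP was -0.64 ± 0.12 log2 (limma adjusted p = 0.252) and CDEP minus ADEP -0.45 ± 0.12 (0.591). A second, dimmer Slc40a1 probe set gave -0.17 and 0.05 for the same pairs, so the probe sets disagree. 2410004B18Rik differed by -0.39 ± 0.08 between CDEP and NDEP. B3gnt5, which makes glycolipid sugar chains, differed between CDEP and ADEP by -0.53 ± 0.12, Adcy7, an enzyme that makes cyclic AMP, by -0.44 ± 0.10, and Rpap2, a phosphatase of RNA polymerase II, by -0.36 ± 0.08. Other probe sets of B3gnt5 and Adcy7 gave values on both sides of 0 for that pair.

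ADEP had the highest mean for Hamp and Actc1 and the lowest for Cyp1a1. Hamp encodes hepcidin, a peptide known from the liver that makes cells take ferroportin off their surface. Its levels were 6.01, 6.46 and 5.87 with CDEP, 5.57, 6.05 and 5.97 with NDEP, 6.70, 6.30 and 6.63 with ADEP, and 5.81, 6.04 and 5.83 with saline. NDEP minus ADEP was -0.68 ± 0.15 log2 (limma adjusted p = 0.415), and -1.20 with the second Hamp probe set, with no overlap between NDEP and ADEP arrays on the first and 1 CDEP array inside the ADEP range. The probe set used can also bind related transcripts, as its design class allows, so with it Hamp and its close relative cannot be told apart. The second probe set is not of that class, and whether it also binds the relative was not tested.

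Cyp1a1 (Entrez gene 13076) had 7.60, 7.68 and 7.56 with CDEP, 6.96, 7.67 and 8.09 with NDEP, 6.46, 7.08 and 6.69 with ADEP, and 7.71, 7.63 and 6.84 with saline. CDEP arrays lay above all ADEP arrays, while NDEP and saline arrays reached down into the ADEP range. CDEP minus ADEP was 0.87 ± 0.26 log2 (limma adjusted p = 0.644) and NDEP minus ADEP 0.83 ± 0.26 (0.892). Against saline the differences were 0.23 with CDEP, 0.18 with NDEP and -0.65 with ADEP, and none passed. With the heart and fat lists as covariates CDEP minus ADEP was 0.49 ± 0.31, and with RNA quality covariates 0.67 ± 0.30. In the mice given OVA the same pairs differed by 0.97 ± 0.26 and 0.61 log2, the first with a limma adjusted p of 0.0568. Cyp1b1, another aryl hydrocarbon receptor target, rose against saline with each particle (0.97, 1.17 and 0.93 log2 with CDEP, NDEP and ADEP), and its largest difference between particles was 0.24 ± 0.22. Of 9 measured receptor targets, Cyp1a1 was the only 1 at an unadjusted p under 0.05 in the F test (11.1%, against 6.06% of all genes), and the repressor gene Ahrr was dim in all groups.

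The acute phase and chemokine genes that stood farthest above saline had overlapping levels with the 3 particles or differed by less than the test could call. Saa3, a serum amyloid A of inflamed tissue, had 11.94, 12.23 and 11.98 with CDEP, 11.56, 11.56 and 12.11 with NDEP, 11.67, 11.42 and 12.09 with ADEP, and 8.31, 9.86 and 9.21 with saline. Orm1, the acute phase protein orosomucoid, had 7.65, 7.66 and 7.81 with CDEP, 7.48, 7.84 and 8.19 with NDEP, 8.15, 7.02 and 8.43 with ADEP, and 4.83, 4.76 and 4.92 with saline. Particle arrays overlapped with each other and lay above all saline arrays. NDEP over ADEP was 1.01-fold for Saa3, with a 95% interval of 0.503 to 2.04, and 0.981-fold for Orm1 (0.568 to 1.69). For NDEP over ADEP these intervals leave room for differences of up to about 2-fold in Saa3. The pairs with CDEP differed more. CDEP minus ADEP was 0.32 log2 for Saa3 and -0.16 for Orm1, and CDEP minus NDEP was 0.30 and -0.13. With the same SE, the intervals of these pairs reach beyond 2-fold in Saa3. Lcn2, an iron-withholding defence protein, differed by 0.45 ± 0.36 log2 between NDEP and ADEP, and Timp1, an inhibitor of matrix proteases, by -0.27 ± 0.35. The neutrophil chemokine Cxcl1 differed by 0.48 ± 0.33 and Cxcl5 by 0.75 ± 0.33 for the same pair. Every ADEP array of Lcn2 and of Cxcl5 lay below all CDEP and NDEP arrays. In Cxcl1 the ADEP arrays lay below all NDEP arrays and overlapped with CDEP. Il33, an epithelial alarm cytokine, differed by 0.07 ± 0.22 between NDEP and ADEP, and CDEP minus NDEP was -0.26. Hmox1, an antioxidant enzyme that degrades haem, differed by 0.01 ± 0.16 between CDEP and NDEP and by 0.22 ± 0.16 between NDEP and ADEP.

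**Figure D3:**
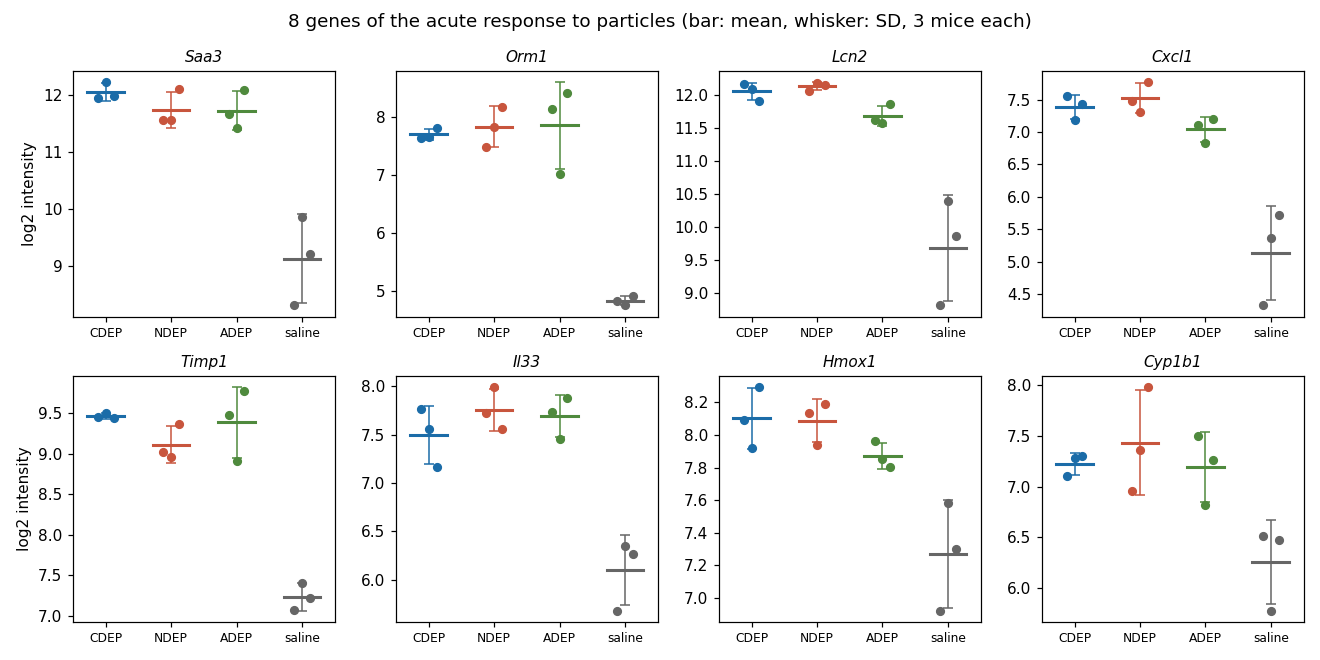
Log2 intensity of 8 genes of the acute response on each array (points), with group mean (bar) and SD (whisker) for CDEP, NDEP, ADEP and saline, 3 mice each; vertical axes differ between panels and do not start at 0. The 3 particle groups overlap in Saa3, Orm1, Il33, Hmox1 and Cyp1b1, and the CDEP arrays of Timp1 lie above its NDEP arrays. The ADEP arrays of Lcn2 lie below all CDEP and NDEP arrays, and those of Cxcl1 below all NDEP arrays. All 9 particle arrays lie above the 3 saline arrays in each gene drawn.

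26 genes of known particle responses were always followed, and they were chosen with earlier results of these data known. Their counts against saline therefore describe the choice and do not test it. Of the 26 genes, 16 passed against saline with at least 1 particle and 11 with all 3. Of all genes, 4.04% passed with CDEP, 2.70% with NDEP and 1.65% with ADEP. In the F test 2 of the 26 had an unadjusted p under 0.05, Cyp1a1 and Slc26a4, a share near the 6.06% of all genes, and the smallest adjusted p was 0.675. Slc26a4, an anion exchanger of airway epithelium, had 8.10, 7.70 and 7.66 with CDEP, 8.27, 8.18 and 8.09 with NDEP, 7.54, 7.09 and 7.44 with ADEP, and 4.99, 6.27 and 6.01 with saline. ADEP arrays lay lowest of the particles, and NDEP minus ADEP was 0.83 ± 0.29 log2 (limma unadjusted p = 0.00945). For 16 of the 26 genes, all 3 pair intervals lay within 2-fold. Clca1, a mucus protein of goblet cells, was the widest apart: 5.20, 3.87 and 7.29 with CDEP, 5.24, 4.20 and 3.82 with NDEP, and 3.78, 3.60 and 3.83 with ADEP. The CDEP array at 7.29 stood highest. The other CDEP arrays lay within the NDEP range and above all ADEP arrays, and Clca1 was dim with NDEP and ADEP.

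45 gene lists for pathways and cell types were described by counts and medians, with no test. Over all genes NDEP had the highest mean of the 3 particles in 4813 genes, CDEP in 3643 and ADEP in 3937, with NDEP also having the highest array medians. The monocyte and macrophage, alveolar macrophage and dendritic cell lists leaned to NDEP, and so did lists of other kinds. NDEP was highest in 8 of 11 cholesterol synthesis, 8 of 12 skeletal muscle, 9 of 14 alveolar type 2 and 11 of 18 interferon genes. It was highest in 9 of 17 neutrophil and 9 of 15 T and NK cell markers, against 38.8% of all genes. Other lists did not lean so, with 4 of 11 mast cell and basophil, 2 of 7 eosinophil and 1 of 13 club cell markers. All 8 measured genes of MHC class II presentation were highest with NDEP, with a median NDEP minus ADEP difference of 0.28 log2, against 0.02 over all genes. H2-Eb1, a class II chain, had 9.91, 9.75 and 9.89 with CDEP, 10.22, 10.27 and 9.98 with NDEP, 9.63, 9.91 and 9.74 with ADEP, and 9.44, 9.52 and 9.70 with saline. NDEP was highest in 11 of 14 monocyte and macrophage markers, 7 of 11 alveolar macrophage markers, 8 of 10 dendritic cell markers, 7 of 10 complement components and 11 of 15 NF-kB pathway genes. None of these members passed an adjusted p of 0.05. At an unadjusted p under 0.05 in the F test they were 2 of 8, 4 of 14, 4 of 11, 5 of 10, 3 of 10 and 3 of 15, counting MHC class II first, against 6.06% of all genes. Examples are Fcgr3, an IgG receptor (NDEP minus ADEP 0.51 ± 0.14), Ccl22 and Ccl17, dendritic cell chemokines (0.49 ± 0.13 and 0.66 ± 0.18), and Relb, an NF-kB subunit (0.44 ± 0.13).

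In whole lung, more cells of a type and more RNA per cell cannot be told apart. The mean log2 level of the 14 monocyte and macrophage markers was 8.09 to 8.14 with CDEP, 8.17 to 8.33 with NDEP, 7.95 to 8.05 with ADEP, and 7.70 to 7.84 with saline. The particle groups did not overlap on this score, and all lay above saline. That pattern did not hold for the 11 alveolar macrophage markers. Their ranges were 7.25 to 7.36, 7.26 to 7.48, 7.05 to 7.17, and 7.22 to 7.30 in the same order. NDEP overlapped with CDEP and saline there, and ADEP lay below saline. For the 10 dendritic cell markers the ranges were 6.09 to 6.17, 6.24 to 6.31, 5.98 to 6.05, and 5.78 to 5.96 in the same order. The part of these markers in the C1q, Ctsk and MHC class II values was not tested. For the 17 neutrophil markers the ranges were 6.94 to 7.05 with CDEP, 7.06 to 7.15 with NDEP, 6.82 to 7.16 with ADEP, and 6.15 to 6.48 with saline, so ADEP arrays spanned those of the other particles. Marco, a scavenger receptor of alveolar macrophages, had a low signal in these lungs (5.12, 5.40, 4.93 and 5.07 on average with CDEP, NDEP, ADEP and saline).

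**Figure D4:**
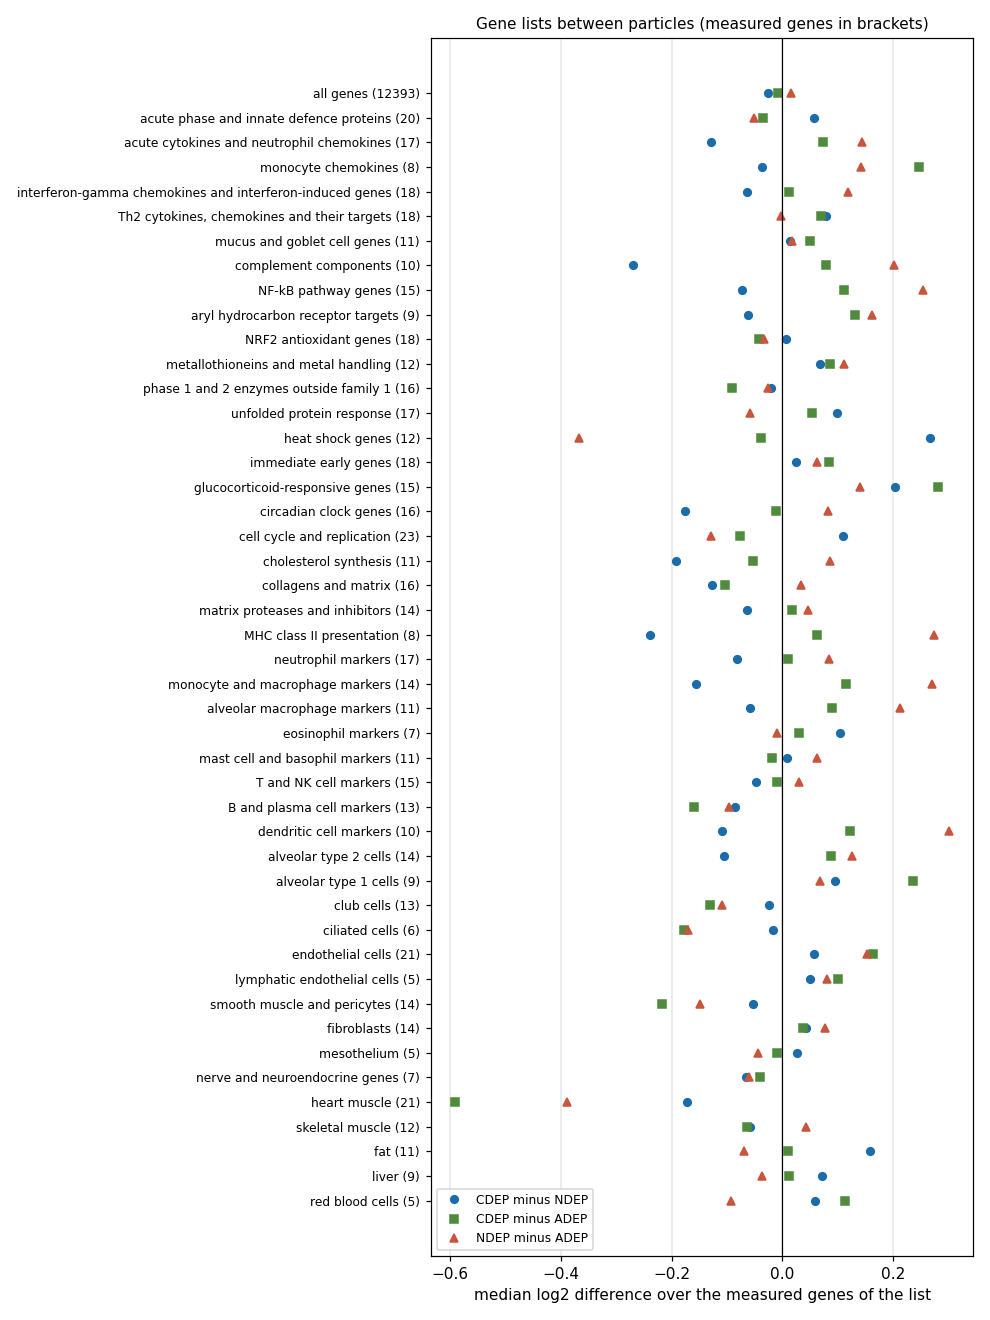
Median log2 difference of the measured genes of 45 lists and of all genes (rows, number measured in brackets) for CDEP minus NDEP, CDEP minus ADEP and NDEP minus ADEP (symbols). Heart muscle has the medians farthest from 0 for the pairs with ADEP (-0.59 and -0.39), and MHC class II and dendritic cell markers have NDEP minus ADEP medians of 0.28 and 0.30.

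Heart muscle genes leaned to ADEP more than any other list. ADEP had the highest mean in 19 of 21, against 31.8% of all genes. In the F test 12 of the 21 (57.1%) had an unadjusted p under 0.05, against 6.06% of all genes. None passed an adjusted p of 0.05. Tnnc1, the calcium-binding troponin C of heart, had 7.71, 7.98 and 7.61 with CDEP, 7.67, 7.69 and 8.03 with NDEP, 9.04, 8.01 and 8.57 with ADEP, and 7.95, 8.07 and 8.50 with saline. Actc1, cardiac actin, had 9.38, 9.23 and 9.45 with CDEP, 9.63, 9.56 and 9.90 with NDEP, 10.20, 9.78 and 10.05 with ADEP, and 9.66, 9.81 and 10.20 with saline. ADEP levels overlapped with saline in both genes, and CDEP levels of Actc1 lay below all others. The mean level of the 21 genes was 7.50 to 7.83 with CDEP, 7.58 to 8.06 with NDEP, 7.91 to 8.50 with ADEP, and 7.90 to 8.61 with saline. The pulmonary veins of mice carry heart muscle, and the labels used here do not say how much each sample held. The count of genes highest with ADEP was 17 to 20 of 21 when any 1 of the 9 arrays was left out. With the mean levels of the heart and fat lists as covariates, genes outside these lists moved unequally. NDEP minus ADEP was 1.26 ± 0.19 log2 for Vnn1 and 0.67 ± 0.19 for C1qb, close to the values without covariates. For the same pair Gclc went from -0.15 to 0.11 and Retnla from -0.44 to 0.05, and neither difference had passed. The CDEP minus ADEP differences of Cyp1a1, Pecam1, Cckar and Actg2 shrank by more than 1.5 times.

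Airway and vessel lists also differed in which particle was highest. ADEP was highest in 11 of 13 club cell genes and 11 of 14 smooth muscle and pericyte genes, against 31.8% of all genes. The median CDEP minus ADEP differences were -0.13 and -0.22 log2. At an unadjusted p under 0.05 in the F test were 1 of 13 and 3 of 14 genes, against 6.06% of all genes. Cckar, of the club cell list, differed by -0.85 ± 0.26 between CDEP and ADEP, and by -0.32 ± 0.26 with heart and fat covariates. Actg2, a smooth muscle actin, differed by -0.50 ± 0.17, and by -0.12 ± 0.17 with these covariates. Endothelial genes lay lowest with ADEP: 17 of 21 were higher with CDEP than with ADEP, against 5909 of all 12393 genes, and 7 of them were so at an unadjusted p under 0.05, against 2.74% of all genes. Pecam1, an adhesion protein of endothelium, had 10.35, 10.35 and 10.40 with CDEP, 10.21, 10.19 and 10.09 with NDEP, 9.43, 10.12 and 9.94 with ADEP, and 10.07, 10.24 and 10.10 with saline. ADEP replicate 1 was the lowest, and CDEP lay above all others. The list as a whole lay below saline with every particle. The mean level of the 21 endothelial genes was 9.77 to 9.91 with CDEP and 9.76 to 9.84 with NDEP. It was 9.49 to 9.77 with ADEP and 9.99 to 10.20 with saline. No Pecam1 difference passed (CDEP minus ADEP 0.53 ± 0.15, and 0.27 ± 0.17 with heart and fat covariates). ADEP also had the largest 3′ minus 5′ differences of the Actb control probe sets, a sign of RNA quality, at 0.90 ± 0.11, against 0.66 ± 0.03 with CDEP and 0.79 ± 0.13 with NDEP (log2, SD, n = 3 each; exact permutation p = 0.0536). The Gapdh control probe sets gave 0.26 ± 0.13 with ADEP, 0.06 ± 0.06 with CDEP and 0.14 ± 0.17 with NDEP (SD, exact permutation p = 0.271). With both RNA quality differences as covariates, Pecam1 differed by 0.28 ± 0.14 between CDEP and ADEP and Actc1 by -0.65 ± 0.16.

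Stress and hormone lists leaned otherwise. NDEP was highest in 0 of 12 heat shock genes, against 38.8% of all genes, and the median NDEP minus ADEP difference was -0.37 log2. Hspa1b, an inducible HSP70, had 10.68, 10.04 and 10.52 with CDEP, 9.86, 9.62 and 8.97 with NDEP, 10.61, 11.04 and 9.78 with ADEP, and 9.72, 10.95 and 10.38 with saline. CDEP was highest in 11 of 15 glucocorticoid-responsive genes and 12 of 17 genes of the unfolded protein response, against 3643 of all 12393 genes. At an unadjusted p under 0.05 in the F test they were 2 of 15 and 0 of 17, against 6.06% of all genes. Dusp1, a phosphatase of stress kinases, was 0.58 ± 0.14 log2 higher with CDEP than with ADEP (limma unadjusted p = 5.41e-04) and did not pass after adjustment. NDEP was highest in 11 of 16 circadian clock genes, against 38.8% of all genes. Dbp, a clock output factor, had 7.12, 7.14 and 7.33 with CDEP, 8.09, 8.70 and 8.37 with NDEP, 6.87, 7.66 and 7.94 with ADEP, and 7.24, 6.32 and 6.96 with saline. CDEP minus NDEP was -1.19 ± 0.39 log2 for Dbp (limma adjusted p = 0.646), and it passed when only the arrays compared were fitted (adjusted p = 0.0127). Lists with 0 members at an unadjusted p under 0.05 in the F test included 18 NRF2 antioxidant genes, 18 interferon genes and 17 unfolded protein response genes. They also included 14 alveolar type 2 genes and 7 eosinophil markers. With 6.06% of all genes at that p, counts of 0 in lists of this size do not set them apart.

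A larger group of particle genes was chosen on other arrays: 393 genes (3.17%) passed as higher with particles and OVA than with OVA alone. In the mice without OVA, NDEP had the highest mean in 232 of them (59.0%), against 38.8% of all genes, CDEP in 97 and ADEP in 64. Their median difference from saline was 0.35 log2 with CDEP, 0.41 with NDEP and 0.31 with ADEP. Of the 393 genes, 108, 140 and 73 passed against saline in the same order. Of all genes, 501 (4.04%) passed with CDEP, 335 (2.70%) with NDEP and 205 (1.65%) with ADEP. The 3 comparisons share the saline arrays. The count highest with NDEP was 205 to 238 when any 1 particle array was left out. After quantile normalization again it was 201 (51.1%, against 30.8% of all genes).

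The same pairs of particles could be set against each other in mice given OVA. There the F test called 70 genes (0.565%), but 2 when only the arrays compared were fitted, 8 with heart and fat covariates and 10 without replicate 1 of ADEP with OVA. The test of whether particle differences depended on OVA called 2 (0.0161%), Chil4 and Gbp6. The Gbp6 call was lost without any 1 of CDEP replicates 1, 2 or 3, NDEP replicates 1 or 2, ADEP replicate 1, or replicates 1 or 2 of CDEP with OVA, and Chil4 passed without each of the particle arrays left out. Both calls were lost with a trended robust variance and with heart and fat covariates. Over all 12393 genes the pair differences without and with OVA had Pearson correlations of -0.12 for CDEP minus NDEP, -0.15 for CDEP minus ADEP and 0.04 for NDEP minus ADEP. These are across genes, which are not independent, and the pairs compared share no array. Over the 486 genes (3.92%) that passed for particles with OVA against OVA alone they were 0.18, 0.29 and 0.38. Of the 14 genes with the smallest p in the F test or in a pair, the widest pair had the same sign with OVA in 8 and the opposite sign in 6. Of all genes, 45.5% had the same sign for CDEP minus NDEP, 41.5% for CDEP minus ADEP and 48.0% for NDEP minus ADEP. The 6 were Ikbip and the genes described above as lowest with CDEP: Slc40a1, 2410004B18Rik, B3gnt5, Adcy7 and Rpap2. The 8 were Vnn1, C1qa, C1qb, Hamp, Sla, Ccl20, Ctsk and Actc1. Arrays of that pair did not overlap with OVA in Vnn1, Sla and Actc1. They overlapped in the others, where differences were smaller than without OVA. These went from 0.64 to 0.28 log2 for C1qa, 0.69 to 0.15 for C1qb and -0.68 to -0.05 for Hamp. For Ccl20 the change was from 0.60 to 0.19, and for Ctsk from -0.89 to -0.45 with OVA. Actc1 passed there for CDEP minus ADEP (-0.58 ± 0.15, limma adjusted p = 0.0443), as did 1.43% of all genes. Chil3, a chitinase-like protein of macrophages, had 8.30, 8.16 and 8.27 with CDEP, 8.28, 8.62 and 8.00 with NDEP, 7.39, 7.69 and 7.09 with ADEP, and 8.47, 8.28 and 7.87 with saline. Its NDEP minus ADEP difference was 0.91 ± 0.33 log2 without OVA and 1.44 ± 0.33 with OVA.

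**Figure D5:**
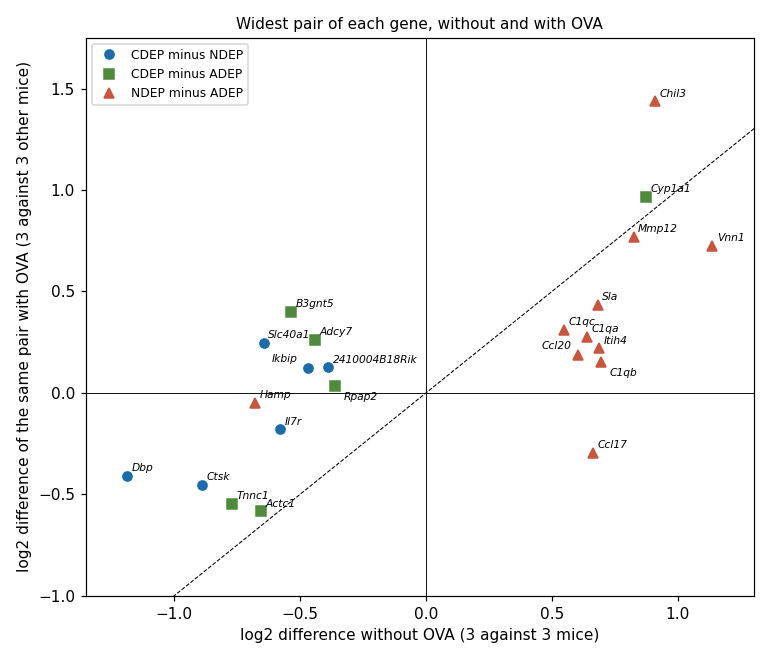
Log2 difference of the widest pair of each of 23 genes without OVA (horizontal axis) and of the same pair with OVA (vertical axis), 3 against 3 mice each; the symbol gives the pair and the dashed line is equality. 14 genes are those with the smallest p and 9 were added from the lists after their values were seen; Vnn1, Cyp1a1, Mmp12, Actc1 and Tnnc1 have like signs, while Slc40a1, B3gnt5, Adcy7 and Ccl17 have opposite ones.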

How the data were processed

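Each of 24 mice gave lung RNA for one 1-colour Affymetrix array, 3 mice per group. RMA, which corrects background and normalizes between arrays, made the deposited intensity of every probe set, per the submitters' processing notes. No version of it is given in the sources used here, nor are batches or scan times. The deposited intensities ran from 5.98 to 18195.5, so they are linear, and log2 was taken. Spot background was not analysed, and the number of arrays limits the precision. A gene is called dim in a group if its mean there fell under the 25th percentile of every array in that group, and these percentiles spanned 4.45 to 4.64 log2. The p-values measure the spread between these mice.

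Of 22690 probe sets, 64 were controls, 20380 had 1 gene symbol in GEO's platform annotation, 691 had several and 1555 had none, and only those with 1 symbol were used. Where a gene had more than 1 (4956 genes), the probe set brightest on average over 24 arrays stood for it, leaving 12393 genes with no filter on dim ones. Symbols are those of the annotation, and 12369 gene identifiers stood in the RefSeq gene table.

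limma 3.58.1 (R 4.3.3) fitted 8 group means to all 24 arrays, with 16 residual and 8.16 prior degrees of freedom. Moderated F tests and two-sided pair tests came from eBayes without trend, and p-values were adjusted by Benjamini-Hochberg over all genes within each comparison at 0.05. Errors after ± are SE for differences and SD for levels. RNA quality and array medians were tested by exact permutation of the 9 particle arrays. The fit was tested on simulated data. The highest correlation between any 2 arrays was 0.996, and at most 0.0353% of their values were identical.

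The genes named follow a rule with 6 parts: the 12 smallest p of the 3-particle F test, since none passed; for each pair, the called genes whose arrays do not overlap, or the 3 smallest p where none passed; up to 3 members of each list with the smallest F test p; 26 genes always followed; the 10 largest called differences for particles with OVA against OVA; and the 3 smallest interaction p. Genes outside the rule were named after their values were seen. The members and the 45 lists (631 genes, 551 measured) were chosen with earlier results of these data known. Alternatives were other probe set rules, leaving out dim genes, repeating quantile normalization, weighting arrays, a variance with trend and robust fit, covariates for RNA quality and for heart and fat genes, fits of only the arrays compared, the replicate number as a block, joint adjustment of the pairs, and leaving out each array. Python 3.11.15 with pandas 2.3.3, numpy 2.4.6 and matplotlib 3.10.9 read tables and drew plots.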

Additional observations from a re-analysis of the deposited data

Results flagged for a closer look

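The interaction F test (limma), which sets the pair differences with OVA against those without, called 2 genes. It called 0 with a trended robust variance (1641 at an unadjusted p under 0.05) and 0 with heart and fat covariates (1194), and the Gbp6 call was also lost without any 1 of 8 single arrays. Chil4, a chitinase-like protein of mouse macrophages and epithelium, averaged 8.10 ± 0.92 log2 with CDEP and OVA, 7.14 ± 0.39 with NDEP and OVA and 5.21 ± 0.38 with ADEP and OVA, against 4.48 ± 0.14 with CDEP, 4.31 ± 0.11 with NDEP and 4.32 ± 0.04 with ADEP without OVA (SD, n = 3 each; limma interaction adjusted p = 0.00625). Chil4 was dim in all groups without OVA, so particles could not be compared there. Gbp6, an interferon-induced GTPase, averaged 7.71 ± 0.59 with CDEP and OVA, 6.18 ± 0.42 with NDEP and OVA and 6.12 ± 0.28 with ADEP and OVA, against 5.30 ± 0.04 with CDEP, 5.57 ± 0.12 with NDEP and 5.23 ± 0.17 with ADEP without OVA (limma interaction adjusted p = 0.0272).

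In 3 other genes every array of one particle lay to one side of the other particle without OVA and to the opposite side with OVA, and none passed the interaction test after adjustment. B3gnt5 differed by -0.25 log2 for CDEP minus NDEP and by -0.53 for CDEP minus ADEP without OVA, against 0.40 for CDEP minus ADEP with OVA (limma interaction adjusted p = 0.106). Adcy7 differed by -0.44 for CDEP minus ADEP without OVA and by 0.26 with OVA (limma interaction adjusted p = 0.160). 2410004B18Rik differed by -0.33 for CDEP minus ADEP without OVA (limma interaction adjusted p = 0.160). The single pairs were not tested for this reversal.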

How the results depend on the processing

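The F test of the 3 particles without OVA called 0 genes, and 6 when only the arrays compared were fitted (C1qa, C1qb, Ccl6, Igha, Itih4 and Vnn1), 1 with array weights (Vnn1), and 0 to 1 with each array left out (Vnn1, without NDEP replicate 1 or ADEP replicate 3). CDEP minus NDEP, which called 0 genes, called 1, Dbp (-1.19 log2), when only the arrays compared were fitted. NDEP minus ADEP, with Vnn1 as its 1 call, called 0 when only the arrays compared were fitted, with RNA quality covariates and when the 3 pairs were adjusted together, and 0 to 1 with each array left out. CDEP minus ADEP called 0 in all 17 alternatives run. The interaction with OVA called 2 genes, and 1 when only the arrays compared were fitted or after quantile normalization again, 4 with the mean of a gene's probe sets, 32 with array weights, 0 with a trended robust variance or heart and fat covariates, and 1 to 11 with each array left out (11 without replicate 3 of CDEP with OVA, 4 without replicate 1 of NDEP with OVA, and 1 without any 1 of CDEP replicates 1, 2 or 3, NDEP replicates 1 or 2, or ADEP replicate 1). The F test with OVA called 70, and 2 when only the arrays compared were fitted, 8 with heart and fat covariates and 10 to 109 with each array left out (10 without replicate 1 of ADEP with OVA, 13 without replicate 2 of CDEP with OVA, 32 without replicate 3 of ADEP with OVA, 107 without its replicate 2, and 109 without replicate 1 or 2 of NDEP with OVA). The mean of particles against saline called 794, and 1209 of all probe sets, 1571 with array weights, 294 with RNA quality covariates, 428 with heart and fat covariates and 256 to 857 with each array left out (256 without saline replicate 1, 507 without saline replicate 3). The causes were not tested. Counts of genes highest with one particle were also retaken, in settings chosen after seeing the data: 201 of 393 genes were highest with NDEP and 19 of 21 heart genes with ADEP after quantile normalization again.

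With the replicate number as a block, the F test called 0, the pairs 0, 0 and 1, the interaction 2, the F test with OVA 86 and the particle mean 861. Samples with the same number had correlations of their deviations from -0.153 to 0.146, so the numbers are not shown to pair the mice.

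Of 2565 alternative values over 161 named genes, 17 changed sign, all of differences that had not passed. Heart and fat covariates gave CDEP minus ADEP of 0.16 for Rsph1, 0.14 for Dnah5, 0.37 for Cxcl2 and 0.49 for Orm1, CDEP minus NDEP of 0.0280 for S100a9, and NDEP minus ADEP of 0.11 for Gclc and 0.05001 for Retnla. RNA quality covariates gave CDEP minus ADEP of 0.11 for Rsph1, 0.20 for Dnah5, -0.0466 for Scd1 and 0.0507 for Orm1. The mean of probe sets gave NDEP minus ADEP of -0.0532 for Srxn1. With each array left out, CDEP minus NDEP ran from -0.0240 to 0.504 for Mt1 and from -0.00045 to 0.086 for Tnf, CDEP minus ADEP from -0.0525 to 0.207 for Reln and from -0.58 to 0.12 for Orm1, and NDEP minus ADEP from -0.0342 to 0.474 for Cyp1b1.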
